A study of Mus musculus with 16 samples.

Results

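The genes described here encode the synaptonemal complex and the chromosome axis of meiosis: Sycp2, Sycp3, Hormad1 and Hormad2 of the axis, Sycp1 of the transverse filaments, and Syce1, Syce2 and Tex12 of the central element. The set was chosen with earlier results of these data known, and its rows were taken by gene symbol. All 8 were found among the 26219 genes listed in both expression tables of the study. Expression was measured in mouse primordial germ cells, the embryonic precursors of eggs and sperm, by 3′ RNA sequencing of amplified cDNA, in 16 libraries. Values are RPM, reads scaled to a library total of 1000000 and not divided by transcript length, so levels were compared between samples of 1 gene and not between genes.

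Germ cells labelled Prdm1 CKO gave 4 libraries and control germ cells another 4, all from E11.5 embryos on C57BL/6. Both groups were Prdm1(flox/flox) and also carried the Rosa26(neo-EYFP/+) reporter, and pregnant mothers received 3 mg of 4-OHT per 25 g of body weight at 10.5 dpc to induce recombination. Only the CKO-labelled embryos had the transgene Dppa3-MCMP(Tg/0), driven from Dppa3, a gene of germ cells. The other 8 libraries came from wild-type germ cells of Dppa3(EGFP/+) embryos of the strain ICR:C57BL/6=1:1, with 2 libraries each at E10.5, at E11.5, at E13.5 from females and at E13.5 from males, and each was amplified from 1 ng of RNA. Cells were isolated from gonads by fluorescence sorting for EYFP or SSEA-1, without a statement of which sort applied to which group. The sex of the E10.5 and E11.5 embryos is not given in the sources used here, nor is it stated whether libraries of a group came from separate embryos or litters, so the p-values measure the spread between these libraries, which may be technical.

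In meiotic prophase, sister chromatids are organised along an axis of cohesins, SYCP2, SYCP3 and HORMAD proteins. Homologous chromosomes are then joined by SYCP1 filaments that meet in a central element containing SYCE1, SYCE2 and TEX12. In the mouse, female germ cells enter meiosis in the fetal ovary around the stage of the latest samples, while male germ cells of that age approach mitotic arrest and enter meiosis only after birth. PRDM1 (BLIMP1) is a transcriptional repressor needed for the specification of germ cells.

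Depth, recovered from the step size of the RPM values, was about 2798000 to 5032000 reads in floxed libraries and 1485000 to 4783000 reads in wild-type libraries, the lowest being E11.5 replicate 1, and 3 reads corresponded to 0.596 to 2.02 RPM. All 9 germ cell markers examined were detected in every library, and their summed level ranged between 3185 and 9460 RPM. Prdm1 itself was at 79.9, 84.1, 76.6 and 89.4 RPM in the CKO-labelled libraries, against 66.2, 50.7, 63.0 and 73.0 RPM in the control libraries, a log2 difference of 0.39 ± 0.12 (SE; limma, adjusted p = 0.164). The groups did not overlap, and the level was higher, not lower, in the libraries labelled CKO. Where the counted 3′ reads lie relative to the floxed part is not given in the sources used here, so these values do not show whether the deletion took place, and the group is called CKO-labelled throughout.

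Promoter sequences of the members were taken from RefSeq (GRCm38.p6), as windows of 250 bases before to 50 bases after each annotated start, and all 8 members matched, with 10 windows. Both strands were searched for the E-box CACGTG, read by MAX and its partners, and for GCGGGAA, read by E2F factors. Such letters are known from mouse germline genes that a Polycomb complex with MAX, MGA and E2F6 keeps silent outside the germline. The E-box occurred in windows of 5 of the 8 members, against 7.15% of all 32851 promoter entries of this length, and the E2F letters in windows of 4 of 8, against 4.6%. Both occurred in the same window of Sycp3, Hormad1, Tex12 and the second start of Syce2, against 0.4566% of all entries. Sycp2, Syce1 (chr7:140777229-140787854) and Hormad2 (chr11:4345801-4441198) held neither. Each motif contains the letters CG, and the 10 windows held 10 to 33 CG dinucleotides, against a median of 7 over all entries. The shares over all entries are therefore not shares among promoters as rich in CG, which were not taken. Hormad1 and Syce2, with 2 windows each, were also set against single entries. The windows with an E-box are shown 5′ to 3′ on the strand of the gene, with that of Sycp2 for contrast, and capitals mark the E-box and the E2F letters.
Sycp3, chr10:88459337-88459636, plus strand: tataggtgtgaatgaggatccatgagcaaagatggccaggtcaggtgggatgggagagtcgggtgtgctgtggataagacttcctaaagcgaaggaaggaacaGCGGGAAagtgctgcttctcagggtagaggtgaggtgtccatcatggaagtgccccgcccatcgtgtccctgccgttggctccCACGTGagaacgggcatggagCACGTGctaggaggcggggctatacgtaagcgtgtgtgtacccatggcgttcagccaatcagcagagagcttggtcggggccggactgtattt
Hormad1, first start, chr3:95559427-95559726, plus strand: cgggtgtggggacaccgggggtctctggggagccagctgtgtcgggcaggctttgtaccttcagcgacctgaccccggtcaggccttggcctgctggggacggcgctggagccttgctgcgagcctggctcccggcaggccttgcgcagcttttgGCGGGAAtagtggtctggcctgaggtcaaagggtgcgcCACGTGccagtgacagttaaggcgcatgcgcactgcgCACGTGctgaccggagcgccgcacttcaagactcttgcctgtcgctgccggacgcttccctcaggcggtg
Tex12, chr9:50561219-50561518, minus strand: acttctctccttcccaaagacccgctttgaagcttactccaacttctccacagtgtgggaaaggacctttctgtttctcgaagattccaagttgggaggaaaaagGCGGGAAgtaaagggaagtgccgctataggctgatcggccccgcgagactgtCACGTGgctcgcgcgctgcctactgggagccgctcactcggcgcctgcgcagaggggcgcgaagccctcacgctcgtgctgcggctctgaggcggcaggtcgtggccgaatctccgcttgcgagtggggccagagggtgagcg
Syce2, second start, chr8:84872008-84872307, plus strand: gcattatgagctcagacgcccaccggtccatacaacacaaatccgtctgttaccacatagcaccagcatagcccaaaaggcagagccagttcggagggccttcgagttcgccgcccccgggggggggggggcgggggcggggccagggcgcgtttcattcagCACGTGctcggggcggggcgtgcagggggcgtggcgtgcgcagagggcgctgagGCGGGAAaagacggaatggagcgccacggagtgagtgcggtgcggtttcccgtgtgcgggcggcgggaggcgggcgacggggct
Sycp1, chr3:102936051-102936350, minus strand: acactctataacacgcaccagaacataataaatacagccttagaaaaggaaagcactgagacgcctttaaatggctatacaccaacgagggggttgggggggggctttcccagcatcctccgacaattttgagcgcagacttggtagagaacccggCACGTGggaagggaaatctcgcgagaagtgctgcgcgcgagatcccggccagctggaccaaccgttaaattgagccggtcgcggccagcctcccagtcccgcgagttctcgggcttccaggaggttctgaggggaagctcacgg
Sycp2, chr2:178407609-178407908, minus strand: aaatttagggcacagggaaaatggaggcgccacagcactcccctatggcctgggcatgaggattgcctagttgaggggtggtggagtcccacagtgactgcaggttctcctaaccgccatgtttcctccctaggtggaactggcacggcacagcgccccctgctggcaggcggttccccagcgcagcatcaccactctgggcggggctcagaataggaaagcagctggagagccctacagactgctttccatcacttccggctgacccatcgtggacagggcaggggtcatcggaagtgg

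Sycp3 and Hormad1 each held 2 E-boxes. Those of Sycp3 began 64 and 43 bases before the start, and those of Hormad1 57 and 20 bases before its first start. The E-boxes of Sycp1, Tex12 and Syce2 began 94, 93 and 88 bases before their starts. The E2F letters lay upstream of the E-boxes in Sycp3, Hormad1 and Tex12, beginning 147, 95 and 145 bases before the start, and downstream of it in Syce2, beginning 34 bases before the second start. The second start of Hormad1 lay 2 bases from the first and held the same matches. GAAAGT, a core of the sequence that PRDM1 binds, was found in Sycp3, where it overlapped the E2F letters, and in Hormad2, against 14.33% of all promoters. CCTCAG, a core of the sequence read by the meiotic initiator STRA8, was found in 6 members, all but Sycp2 and Sycp3, against 26.75% of all promoters. These matches describe letters in short windows and say nothing of binding in these cells.

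**Figure D1:**
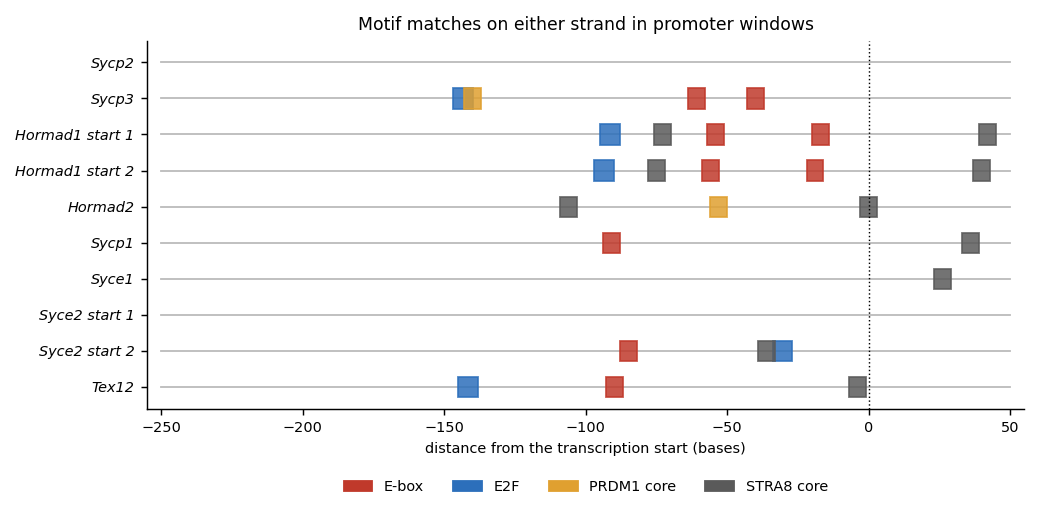
Positions of motif matches on either strand in the 10 promoter windows of the 8 members, in bases from the annotated start (dotted line), with 1 colour per motif. The E-boxes of Sycp3, Hormad1, Sycp1, Syce2 and Tex12 all began between 94 and 20 bases before the start, and no motif was found in the windows of Sycp2 or of the first start of Syce2.

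In wild-type germ cells the genes of the complex rose between E11.5 and E13.5, and for most of them the level was higher in females. With limma on log2(RPM + 1) and adjusted p-values under 0.05 over all genes tested, 8 of 8 members were higher in E13.5 females than at E11.5, where 31.2% of all 10749 tested genes were called higher and 51.2% were called in either direction. In E13.5 males 7 of 8 were higher than at E11.5, where 22.3% of all genes were called higher and 38.2% in either direction. Between the sexes at E13.5, 6 of 8 were higher in females and 0 lower, where 21.2% of all genes were called higher, 16.4% lower and 37.6% in either direction. From E10.5 to E11.5 only Hormad1 and Tex12 were called, both higher at E11.5, where 2.31% of all genes were called higher and 4.28% in either direction. The median log2 fold change of the 8 members was 2.44 in E13.5 females against E11.5, 1.50 in E13.5 males against E11.5 and 1.14 in E13.5 females against males, beside medians of 0.13, 0.11 and 0.05 over all genes tested.

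The comparisons share libraries: both E13.5 groups were set against the same E11.5 libraries, so their calls are not independent of each other. A member entered the tests with at least 5 RPM in 2 wild-type libraries, and all 8 did. Sycp1 passed only through its E13.5 libraries, and Sycp2 passed through these and 1 E11.5 library, so that these genes had to be high at E13.5 to be tested. Both were also called against E11.5 in each sex with no filter, at limma adjusted p-values of 0.000112 (females) and 0.000558 (males) for Sycp1 and of 0.0143 (females) and 0.00895 (males) for Sycp2. Tex12 passed through its E11.5 and E13.5 libraries and stayed below 5 RPM at E10.5. With no filter its call in E11.5 against E10.5 was lost (limma, adjusted p = 0.0645). In these bulk samples, fewer cells expressing a gene and less RNA per cell cannot be told apart.

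**Figure D2:**
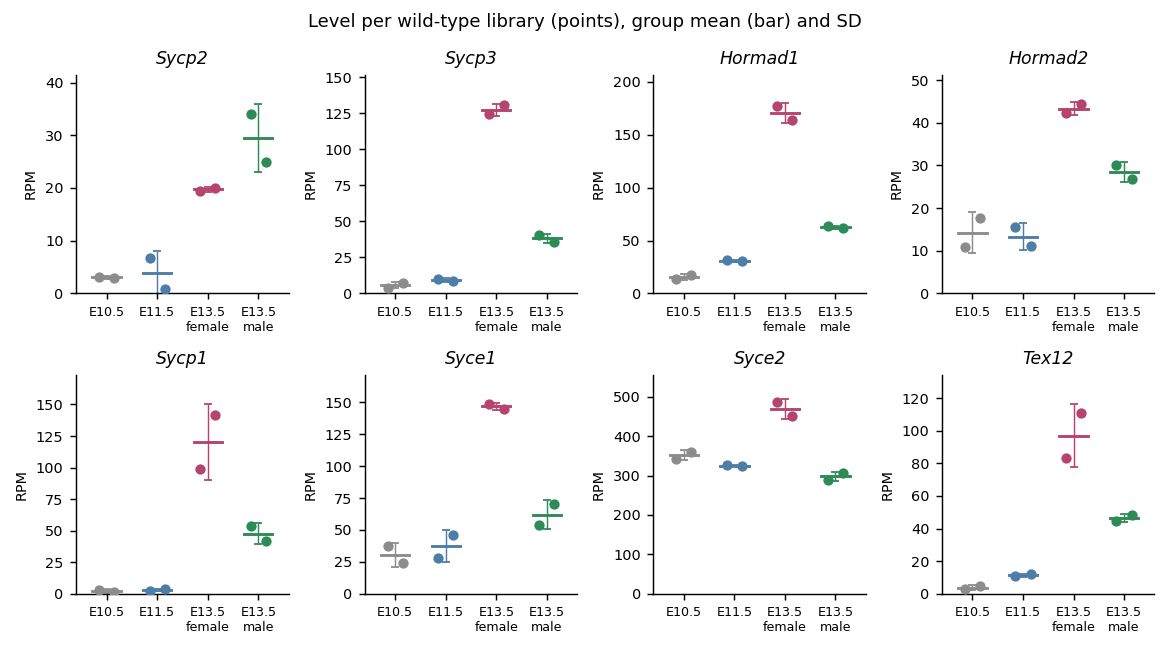
Level in RPM of each member in the 8 wild-type libraries (points), with the group mean (bar) and SD (whisker), 2 libraries per group and a separate scale per gene. Every member except Sycp2 had its highest group mean in E13.5 females, and Sycp2 had its highest in E13.5 males.

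Sycp3 encodes the protein that compacts the axis and is a standard marker of meiotic chromosomes. Its level was 4.06 and 7.04 RPM in the E10.5 libraries, 10.1 and 8.26 RPM in the E11.5 libraries, 124 and 130 RPM in E13.5 females, and 40.4 and 35.9 RPM in E13.5 males. No groups overlapped, and the females stood apart from all other libraries. Over all genes tested, the libraries did not overlap for 74.9% in E13.5 females against E11.5 and for 66.2% in E13.5 males against E11.5. The level was 13.9-fold higher in E13.5 females than at E11.5, with a log2 fold change of 3.66 ± 0.26 (SE; limma, adjusted p = 3.87e-12), and 4.16-fold higher in E13.5 males than at E11.5 (1.95 ± 0.26; limma, adjusted p = 6.71e-07). It was 3.34-fold higher in E13.5 females than in males (1.72 ± 0.26; limma, adjusted p = 5.05e-06). The difference between E11.5 and E10.5, 0.67 ± 0.26, was not called (limma, adjusted p = 0.134). Every base of the last 300 exon bases of Sycp3 lies in exons of Chpt1 on the opposite strand, and the use of strand in counting is not given in the sources used here. Chpt1 averaged 20.0 RPM at E10.5, 23.9 RPM at E11.5, 25.7 RPM in E13.5 females and 23.1 RPM in E13.5 males. Sycp3 averaged less than Chpt1 at E10.5 (5.55 RPM) and at E11.5 (9.18 RPM). The part of Chpt1 reads in the Sycp3 values was not tested.

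Sycp2 encodes the large axis partner of SYCP3, and it was the one member with a higher mean in E13.5 males than in females. It was at 3.16 and 2.88 RPM in the E10.5 libraries, 6.73 and 0.854 RPM in the E11.5 libraries, 19.4 and 20.0 RPM in E13.5 females, and 34.1 and 25.0 RPM in E13.5 males. Both males lay above both females. The log2 fold change was 2.45 ± 0.44 in E13.5 females against E11.5 (limma, adjusted p = 4.25e-05) and 3.00 ± 0.44 in E13.5 males against E11.5 (limma, adjusted p = 4.08e-06). At E11.5 the value rested on 13 reads in all, and the log2 fold changes were 3.48 in females and 4.03 in males without E11.5 replicate 1, and 1.42 in females and 1.96 in males without E11.5 replicate 2, all called. With reads pooled within groups the level was 7.57-fold (95% counting interval 4.31 to 14.5) that of E11.5 in females and 11.4-fold (6.49 to 21.8) in males. The difference between E13.5 females and males, −0.54 ± 0.44, was not called (limma, adjusted p = 0.355), with a 95% interval of −1.45 to 0.36. With limma-voom on reads recovered from the RPM steps the same difference was called lower in females, at −0.57 (adjusted p = 0.0365).

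Hormad1 encodes a HORMA-domain protein that marks unsynapsed axes and promotes the formation of DNA breaks. Its level was 13.54 and 17.3 RPM in the E10.5 libraries, 31.7 and 30.2 RPM in the E11.5 libraries, 177 and 164 RPM in E13.5 females, and 63.5 and 61.6 RPM in E13.5 males. Each group was clear of the next. E11.5 cells held 2.01-fold more Hormad1 than E10.5 cells (log2 fold change 0.97 ± 0.18; limma, adjusted p = 0.00127), and 46.2% of all genes tested had E11.5 and E10.5 libraries that did not overlap. That call ended without E10.5 replicate 1 (limma, adjusted p = 0.0528) and with no mean-variance trend (0.0805). Hormad1 was 5.51-fold higher in E13.5 females than at E11.5 (2.43 ± 0.18; limma, adjusted p = 9.92e-12), 2.02-fold higher in E13.5 males than at E11.5 (0.99 ± 0.18; limma, adjusted p = 5.62e-05) and 2.73-fold higher in E13.5 females than in males (1.43 ± 0.18; limma, adjusted p = 2.63e-07).

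Hormad2, whose protein also sits on unsynapsed axes and acts in the checkpoint on asynapsis, changed less. It was at 10.8 and 17.6 RPM in the E10.5 libraries, 15.5 and 11.1 RPM in the E11.5 libraries, 42.2 and 44.4 RPM in E13.5 females, and 30.1 and 26.8 RPM in E13.5 males. The E10.5 and E11.5 libraries overlapped, and the E13.5 groups lay above them. The gene was 3.26-fold higher in E13.5 females than at E11.5 (log2 fold change 1.65 ± 0.26; limma, adjusted p = 8.72e-06) and 2.14-fold higher in E13.5 males than at E11.5 (1.06 ± 0.26; limma, adjusted p = 0.0022). The difference of 0.59 ± 0.26 between E13.5 females and males missed the threshold (limma, adjusted p = 0.0770), although the 4 libraries did not overlap by sex, as was so for 71.1% of all genes tested.

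Sycp1, the gene of the transverse filaments, had the widest ratio between its highest and lowest group means of the 8, over a lowest group of 10 reads. It was at 3.16 and 0.960 RPM in the E10.5 libraries, 2.02 and 3.42 RPM in the E11.5 libraries, 98.9 and 141 RPM in E13.5 females, and 53.8 and 41.6 RPM in E13.5 males. It was close to the detection floor at both early stages, at 10 reads in all at E10.5 and 15 at E11.5. The log2 fold change was 5.03 ± 0.34 in E13.5 females against E11.5 (limma, adjusted p = 2.04e-12) and 3.72 ± 0.34 in E13.5 males against E11.5 (limma, adjusted p = 8.53e-10). With reads pooled within groups these were folds of 39.1 (95% counting interval 23.6 to 70.1) in females and 15.9 (9.49 to 28.9) in males. The level was 2.52-fold higher in E13.5 females than in males (1.305 ± 0.34; limma, adjusted p = 0.00299), a call that ended without female replicate 2 (limma, adjusted p = 0.106) or without male replicate 2 (limma, adjusted p = 0.0583).

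Among the central element genes, Syce1 was at 37.0 and 24.0 RPM in the E10.5 libraries, 28.3 and 46.4 RPM in the E11.5 libraries, 149 and 145 RPM in E13.5 females, and 54.1 and 70.1 RPM in E13.5 males. The early stages overlapped, and the females were clear of all others. SYCE1 joins the ends of the SYCP1 filaments. The gene was 3.93-fold higher in E13.5 females than at E11.5 (log2 fold change 1.99 ± 0.21; limma, adjusted p = 8.10e-09) and 2.37-fold higher in E13.5 females than in males (1.24 ± 0.21; limma, adjusted p = 2.47e-05). The rise in E13.5 males against E11.5, 1.66-fold (0.75 ± 0.21; limma, adjusted p = 0.00515), was lost without E11.5 replicate 1 (limma, adjusted p = 0.159), without male replicate 2 (0.102), with no filter (0.0857) and with no mean-variance trend (0.103).

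Tex12, whose protein pairs with SYCE2 to lengthen the central element, was at 2.71 and 4.80 RPM in the E10.5 libraries, 10.8 and 12.0 RPM in the E11.5 libraries, 83.2 and 111 RPM in E13.5 females, and 44.8 and 48.2 RPM in E13.5 males. No groups overlapped. E11.5 cells held 3.03-fold more Tex12 than E10.5 cells (log2 fold change 1.41 ± 0.26; limma, adjusted p = 0.00148), a call that ended without E10.5 replicate 1 (limma, adjusted p = 0.0618) and under 4 other settings (adjusted p between 0.0556 and 0.0809). Tex12 was 8.53-fold higher in E13.5 females than at E11.5 (2.97 ± 0.26; limma, adjusted p = 4.32e-10), 4.09-fold higher in E13.5 males than at E11.5 (1.94 ± 0.26; limma, adjusted p = 1.12e-06) and 2.09-fold higher in E13.5 females than in males (1.03 ± 0.26; limma, adjusted p = 0.00264). The call between the sexes ended without female replicate 2 (limma, adjusted p = 0.101).

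Syce2, whose protein is the partner of TEX12, varied least. It was at 343 and 360 RPM in the E10.5 libraries, 326 and 325 RPM in the E11.5 libraries, 488 and 452 RPM in E13.5 females, and 290 and 306 RPM in E13.5 males. The females were highest and the males lowest. The gene was 1.44-fold higher in E13.5 females than at E11.5 (log2 fold change 0.53 ± 0.09; limma, adjusted p = 4.18e-05) and 1.58-fold higher in E13.5 females than in males (0.65 ± 0.09; limma, adjusted p = 3.18e-06). In E13.5 males against E11.5 it was the one member not called (−0.13 ± 0.09; limma, adjusted p = 0.299). Across the 4 wild-type groups the highest mean was 1.58 times the lowest for Syce2, and 58.3 times for Sycp1, 25.8 for Tex12, 22.9 for Sycp3, 11.1 for Hormad1, 9.78 for Sycp2, 4.82 for Syce1 and 3.26 for Hormad2.

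**Figure D3:**
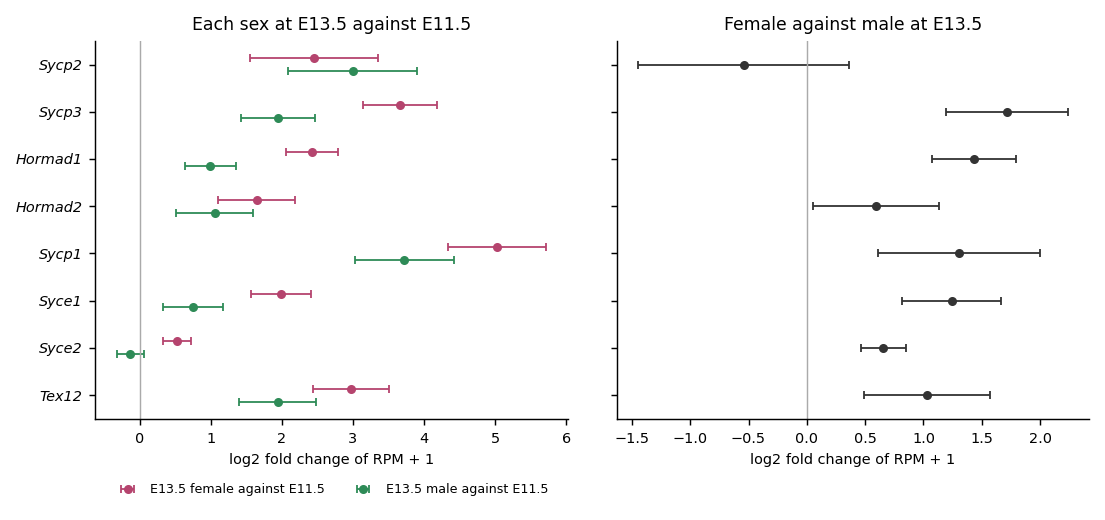
Log2 fold change of RPM + 1 with its 95% interval for each member, in E13.5 females and males against E11.5 (left) and in E13.5 females against males (right). On the right, 7 of 8 estimates lie above 0, Sycp2 lies below it with an interval from −1.45 to 0.36, and the interval of Hormad2 starts at 0.05 although its adjusted p did not pass.

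Members with and without the shared promoter letters overlapped in the size of their change. Of the 4 members with E-box and E2F letters in 1 window, Sycp3, Tex12 and Hormad1 had log2 fold changes of 3.66, 2.97 and 2.43 in E13.5 females against E11.5, and Syce2 had 0.53. Sycp2, Syce1 and Hormad2, with neither, had 2.45, 1.99 and 1.65. Sycp1, with the E-box alone, had 5.03. These are 8 genes and no test was made.

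Markers of other cells moved with some of these contrasts. The 4 Sertoli cell markers summed to 24.0 and 16.2 RPM in the E13.5 male libraries, mostly from Cst9 and with Amh at 0, and all 4 were at 0 in both E13.5 female libraries. The 6 erythroid markers summed to 22.8 and 32.6 RPM in E13.5 females, against 2.67 and 3.52 RPM in E13.5 males. They summed to 14.8 and 5.98 RPM at E11.5, against 224 and 213 RPM at E10.5, with Alas2 at 0. The 4 pregranulosa markers summed to 9.20 and 10.1 RPM in E13.5 females, against 1.34 and 2.47 RPM in E13.5 males. The female sum came mostly from Irx3 and Wnt4. Fst had the lower mean in females (0.516 RPM, against 1.55 RPM in males), and Foxl2 averaged 0.274 RPM in females and 0 in males. The 9 germ cell markers summed to between 5634 and 5810 RPM in E13.5 females, against 9049 to 9460 RPM in E13.5 males. The largest part was Dppa3, which averaged 2478 RPM in females and 6283 RPM in males. Pou5f1, Nanos3, Prdm14 and Dnd1 also had higher means in males, whereas Ddx4, Dazl, Kit and Tfap2c had higher means in females.

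Other markers moved between E11.5 and E13.5. The 4 mesonephric markers summed to 1.05 and 1.64 RPM in E13.5 females and to 1.34 and 0.352 RPM in E13.5 males, against 18.2 and 16.2 RPM at E11.5. Of these, Pax8 and Cdh16 were called lower in both sexes, with Cdh16 at 0 in all 4 E13.5 libraries, and Pax2 was at 0 in the E13.5 libraries as well. The 6 endothelial markers summed to 0.836 and 1.37 RPM in E13.5 females and to 2.34 and 1.06 RPM in E13.5 males, against 5.39 and 11.7 RPM at E11.5, and Tek, the main part of the E11.5 sum, was called lower in both sexes. The 8 gonadal somatic markers summed to 2.51 and 3.02 RPM in E13.5 females and to 13.03 and 11.3 RPM in E13.5 males, against 5.39 and 6.26 RPM at E11.5. The male sum came mostly from Gata4 (mean 4.45 RPM) and Wt1 (3.80 RPM). Lhx9, Emx2 and Nr2f2 had higher means in E13.5 females than in males. Emx2 (0.343 RPM, against 1.19 RPM) and Nr2f2 (0.176 RPM, against 1.90 RPM) had lower means in E13.5 males than at E11.5. The part of these differences in the results was not tested.

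Other genes of meiotic prophase were counted from 6 lists, with 36 genes listed, 34 measured and 22 tested in the wild-type table. Of these 22, 7 reached 5 RPM in E13.5 females alone (Stra8, Meioc, Terb2, Majin, Spdya, Msh4 and Meiob) and Syce3 and Tex11 in E13.5 libraries alone, so that these 9 had to be high there to be tested. The counts were therefore also taken with no filter, over the 33 genes with any read, a setting chosen after the data were seen. In E13.5 females against E11.5, 26 of the 33 were then called higher and 0 lower by limma, with a median log2 fold change of 1.83, where 17.7% of all 18473 genes with any read were called higher and their median was 0.11. In E13.5 males against E11.5, 10 of the 33 were higher and 0 lower, with a median of 0.38, where 10.8% of all genes were higher and their median was 0.0367. Between the sexes at E13.5, 18 of the 33 were higher in females and 0 lower, with a median of 1.12, where 11.2% of all genes were higher and their median was 0.0320. In E11.5 against E10.5, 3 of the 33 were higher and 0 lower, where 0.211% of all genes were higher. Of the 22 that passed the filter, 20 were called higher in E13.5 females against E11.5 (31.2% of all genes tested), 11 in E13.5 males against E11.5 (22.3%), 14 in E13.5 females against males (21.2%) and 5 in E11.5 against E10.5 (2.31%).

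The meiotic cohesins form the core of the axis on which the members assemble, and 3 of the 4 were tested. Rec8 averaged 14.1 RPM at E11.5, 308 RPM in E13.5 females and 14.8 RPM in E13.5 males. It was higher in females than in males by 4.32 ± 0.24 on the log2 scale (limma, adjusted p = 3.47e-14), and in males against E11.5 it differed by 0.03 ± 0.24 (limma, adjusted p = 0.933). Smc1b averaged 37.0 RPM at E11.5, 420 RPM in E13.5 females and 130 RPM in E13.5 males, and Stag3 averaged 88.2 RPM at E11.5, 289 RPM in E13.5 females and 132 RPM in E13.5 males. Both were called higher in each sex than at E11.5 and in females than in males, as most of the members were. Rad21l was at 0 in all 8 libraries.

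Of the genes of meiotic entry, Stra8, whose protein starts the meiotic programme, was at 412 and 403 RPM in E13.5 females, against 0.668 and 1.76 RPM in E13.5 males, and was at 0 in both E11.5 libraries. Meioc, needed to maintain prophase, was at 103 and 113 RPM in E13.5 females, against 3.01 and 3.17 RPM in E13.5 males. Both passed the filter through E13.5 females alone. In E13.5 males they were nonetheless called higher than at E11.5 (limma, adjusted p = 0.0417 for Stra8 and 0.00596 for Meioc), and with no filter Meioc was called (0.0426) and Stra8 was not (0.0983). The E13.5 male means of members were 38.2 RPM for Sycp3, 29.5 RPM for Sycp2 and 47.7 RPM for Sycp1. Dazl, an RNA-binding licensing factor for meiosis, averaged 34.2 RPM at E10.5, 240 RPM at E11.5, 1648 RPM in E13.5 females and 1355 RPM in E13.5 males, and it was called in all 4 wild-type comparisons.

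Of the 3 further genes of the complex, Syce3 and Six6os1 were called higher in E13.5 females than at E11.5. Sycp2l was at 0.418 and 0 RPM in E13.5 females and at 0 in all other wild-type libraries, and was not tested. Syce3 averaged 20.0 RPM in E13.5 females, against 6.15 RPM in E13.5 males (log2 fold change 1.56 ± 0.42; limma, adjusted p = 0.00437). Six6os1 averaged 118 RPM in E13.5 females and 111 RPM in E13.5 males, against 41.9 RPM at E11.5, and the sexes differed by 0.10 ± 0.17 on the log2 scale (limma, adjusted p = 0.699). Among genes of break formation, Spo11, the enzyme that cuts the DNA, averaged 18.3 RPM in E13.5 females and 29.0 RPM in E13.5 males, against 4.53 RPM at E11.5. It was called higher than at E11.5 in both sexes, and, as for Sycp2, the difference between females and males was negative and not called (−0.64 ± 0.33; limma, adjusted p = 0.134). Tex11, an X-linked crossover gene, averaged 12.4 RPM in females and 21.8 RPM in males (−0.79 ± 0.42; limma, adjusted p = 0.14). In the telomere attachment list, Terb2 averaged 9.43 RPM in E13.5 females and 2.60 RPM in E13.5 males, Majin 9.06 RPM in females and 0.844 RPM in males, and Spdya 8.65 RPM in females and 0.704 RPM in males. These 3 entered the tests through their female libraries alone, where they were called higher than in males. With no filter Majin (limma, adjusted p = 0.00683) and Spdya (0.00684) were called, as were Terb1 (0.0109) and Kash5 (0.00442), which did not pass the filter, and Terb2 was not (0.0873). Sun1, the remaining gene of this list, reached 5 RPM in all 4 groups and averaged 112 RPM in E13.5 females and 115 RPM in E13.5 males. The sexes differed by −0.03 ± 0.13 (limma, adjusted p = 0.902), and Sun1 was not called in females against E11.5 (limma, adjusted p = 0.0674). No gene of the 6 was called in E13.5 males against E11.5, with or without the filter.

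**Figure D4:**
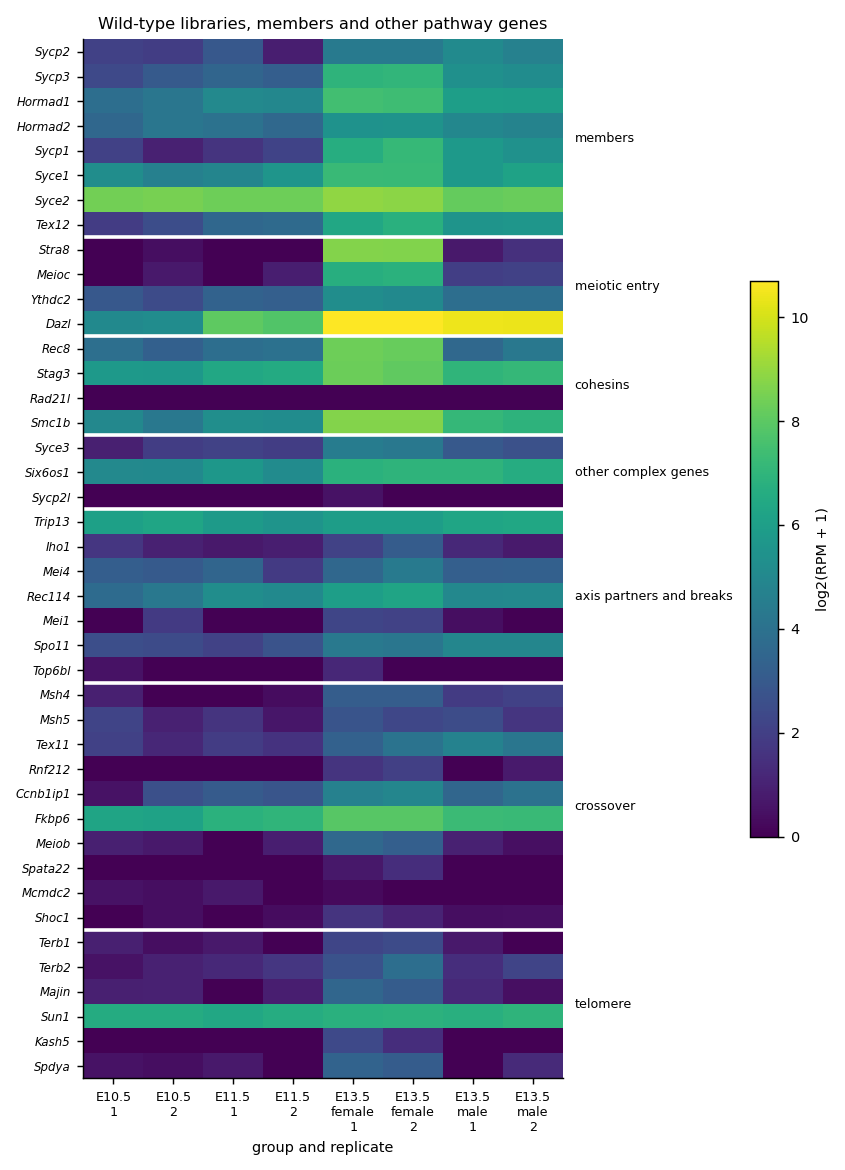
Log2(RPM + 1) of the 8 members and 34 other meiotic genes in the 8 wild-type libraries, from dark (0) to yellow (highest), with rows grouped by list. Stra8, Meioc and Rec8 are far brighter in the E13.5 female columns than in the male ones, whereas Sycp1, Sycp3 and Tex12 are lighter in both E13.5 sexes than at the earlier stages.

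For each member, the genes closest in log2 level over the 8 wild-type libraries were sought among 7587 other named genes averaging 10 RPM or more. The 8 members were left out of that set, and Syce3, Six6os1 and Sycp2l fell outside it. No listed gene of the complex could therefore be picked. The closest to Hormad1 was Rnd2 (Pearson r = 0.992), followed by the cohesin gene Stag3 (r = 0.991). The closest to Syce1 was Dmc1, a meiotic recombinase (r = 0.988), and the closest to Tex12 was Mael, a gene of the piRNA pathway (r = 0.994). Sycp3 was closest to Myo5b (r = 0.995), Sycp2 to Ascl2 (r = 0.990), Sycp1 to Tbc1d14 (r = 0.995), Hormad2 to Nae1 (r = 0.994) and Syce2 to Ssr2 (r = 0.986). Ascl2 had the order of Sycp2, with 22.1 RPM in E13.5 females and 41.6 RPM in E13.5 males. The points are 8 libraries in 4 groups and share the same libraries for every gene, so these values describe likeness only.

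In the floxed E11.5 germ cells, no member was called between the CKO-labelled and control libraries. Of the 8 members 7 passed the filter of at least 5 RPM in 4 libraries, and 0 of 7 were called by limma at an adjusted p under 0.05, where 2.43% of all 9384 tested genes were. At an unadjusted p under 0.05, 1 member passed (Sycp3), where 12.0% of all genes did, and limma-voom on recovered reads called 0 members. The median log2 fold change of the 7 was −0.03, beside −0.01 over all genes. No member had groups that did not overlap, where 8.19% of all genes did.

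Sycp3 was at 37.2, 38.4, 36.5 and 24.7 RPM in the CKO-labelled libraries, against 25.9, 39.6, 11.6 and 17.4 RPM in the control libraries. Control replicate 2 lay above all 4 CKO-labelled libraries, and the other 3 controls lay in or below their range. The difference was 0.63 ± 0.29 on the log2 scale (limma, unadjusted p = 0.0498, adjusted p = 0.415). Without CKO-labelled replicate 4 and control replicate 2, chosen after the data were seen because they had the highest gonadal somatic markers of their groups, it was 1.06 (limma, adjusted p = 0.0634). For Sycp3 these were also the lowest CKO-labelled and the highest control library, so leaving them out could only raise the difference. CKO-labelled replicate 1, with a marker sum of 44.1 RPM against 43.6 RPM in control replicate 2, was kept. The means were 34.2 ± 6.38 RPM in CKO-labelled and 23.6 ± 12.2 RPM in control libraries (SD, n = 4 each). Both lay above the wild-type E11.5 mean of 9.18 RPM and below the E13.5 means of 38.2 RPM in males and 127 RPM in females. Those wild-type values were normalised separately and come from another strain, and the difference was not tested. Chpt1, on the opposite strand, averaged 38.0 RPM in CKO-labelled and 39.6 RPM in control libraries, and 23.9 RPM in the wild-type E11.5 libraries. Its part in the Sycp3 values was not tested here either.

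The other axis genes differed by less than the spread between libraries. Hormad1 was at 50.4, 41.9, 43.6 and 27.9 RPM in CKO-labelled libraries, against 44.1, 58.9, 38.3 and 53.0 RPM in control libraries (log2 difference −0.25 ± 0.19; limma, adjusted p = 0.672). Hormad2 was at 12.8, 16.5, 12.1 and 21.4 RPM in CKO-labelled libraries, against 10.3, 19.1, 17.7 and 14.6 RPM in control libraries (0.02 ± 0.23; limma, adjusted p = 0.988). For both the ranges of the 2 groups overlapped over most of their length. Sycp2 was at 3.25, 4.97, 0.861 and 5.36 RPM in CKO-labelled libraries, against 1.77, 4.18, 3.94 and 4.71 RPM in control libraries, and with 1 of 8 libraries at 5 RPM it was not tested.

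Sycp1 was at 7.20, 7.35, 6.60 and 2.50 RPM in CKO-labelled libraries, against 4.12, 5.97, 5.25 and 6.36 RPM in control libraries. CKO-labelled replicates 1, 2 and 3 lay above every control and replicate 4 below them all. The log2 difference was 0.04 ± 0.30 (limma, adjusted p = 0.981), with a 95% interval of −0.61 to 0.69.

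Of the central element genes, Syce1 was at 49.2, 50.3, 43.6 and 38.6 RPM in CKO-labelled libraries, against 50.0, 51.1, 55.8 and 47.3 RPM in control libraries (−0.17 ± 0.13; limma, adjusted p = 0.672). Syce2 was at 415, 377, 424 and 417 RPM in CKO-labelled libraries, against 492, 325, 404 and 470 RPM in control libraries (−0.03 ± 0.12; limma, adjusted p = 0.958). The CKO-labelled values of Syce2 all lay inside the control range. Tex12 was at 9.99, 6.36, 5.74 and 5.72 RPM in CKO-labelled libraries, against 7.65, 17.1, 7.66 and 9.42 RPM in control libraries. CKO-labelled replicates 2, 3 and 4 were below every control, and the difference of −0.49 ± 0.28 was not called (limma, adjusted p = 0.543), with a 95% interval of −1.08 to 0.11.

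**Figure D5:**
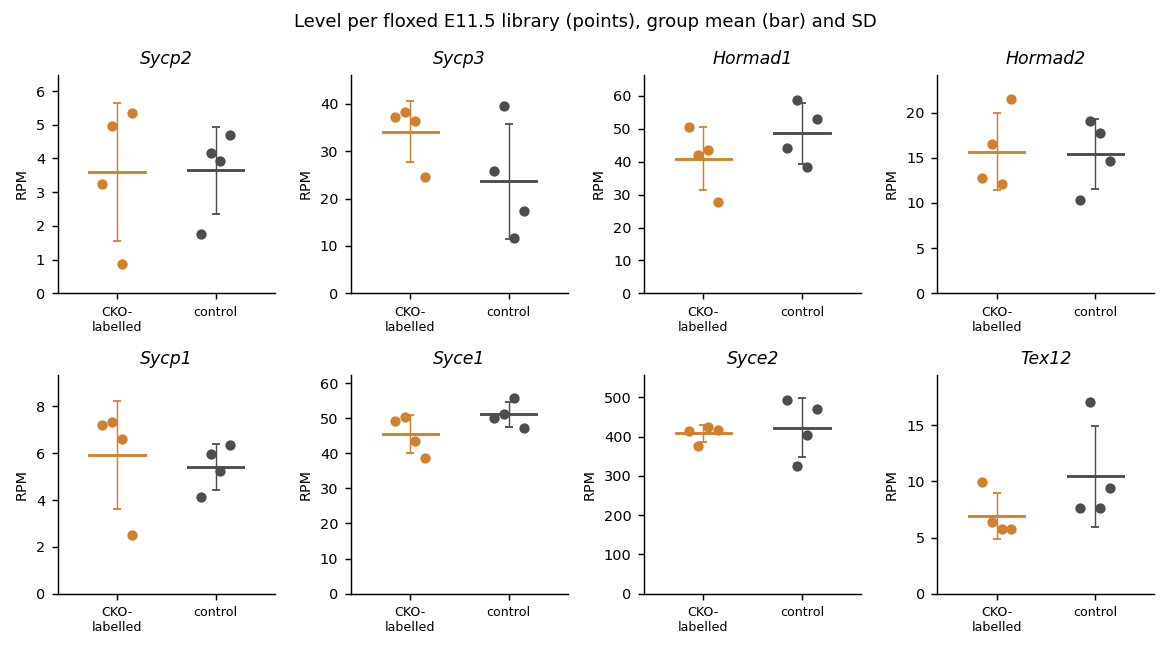
Level in RPM of each member in the floxed E11.5 libraries, 4 CKO-labelled (left in each panel) and 4 control (right), as points with the group mean (bar) and SD (whisker), on a separate scale per gene. The groups overlap for every member, and single libraries lie apart from their group, such as 24.7 RPM for Sycp3 and 2.50 RPM for Sycp1 among the CKO-labelled libraries.

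CKO-labelled replicate 4 was the lowest of its group for 5 of the 8 members, and control replicate 2 was the highest of its group for 4 of 8. The 8 gonadal somatic markers summed to 44.1, 9.14, 6.03 and 95.4 RPM in CKO-labelled libraries, against 6.47, 43.6, 11.6 and 7.77 RPM in control libraries, and none of the 8 was at 0 in CKO-labelled replicates 1 and 4 and control replicates 2 and 3. Endothelial markers, 6 in all, reached a sum of 69.3 RPM in CKO-labelled replicate 4 and of between 9.89 and 22.8 RPM in the other 7 libraries. Dazl was at 162, 181, 148 and 67.2 RPM in CKO-labelled libraries, against 120, 380, 120 and 290 RPM in control libraries. The part of these markers in the members' values was not tested beyond the fit without those 2 libraries, in which 0 members were called as well. Of the other meiotic genes, 11 of the 34 measured were tested between CKO-labelled and control libraries and 0 were called. At an unadjusted p under 0.05, which 12.0% of all genes passed in either direction, 0 of the 11 were higher and 3 lower, namely Smc1b (−0.47 ± 0.21), Mei4 (−0.57 ± 0.26) and Rec114 (−0.56 ± 0.24), with limma adjusted p-values of 0.404, 0.396 and 0.340.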

How the data were processed

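The authors deposited 2 tables of RPM per gene (reads scaled to a library total of 1000000), 1 for the floxed and 1 for the wild-type libraries. Reads were processed with cutadapt 1.3, TopHat 1.4.1, Cufflinks 2.2.0 and the mm10 genome, per the submitters' processing notes, and the use of strand is not given in the sources used here. This scaling makes levels relative to all other genes of a library. Spike rows, 92 in the wild-type table and 1.09% to 1.89% of its RPM, were left out. Low RPM values fell on steps of 1 read for over 99.6% of values (within 0.05 reads), which gave each depth, and intervals from reads cover counting error only.

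Each table was tested on its own with limma 3.58.1 (R 4.3.3) on log2(RPM + 1), with a mean-variance trend and Benjamini-Hochberg adjustment over all genes with 5 RPM or more in 4 of the floxed or 2 of the wild-type libraries. Fold changes on that scale understate changes of low genes, and plain folds are ratios of mean RPM. The procedure was tested on simulated data. The members and the gene, marker and motif lists were chosen with earlier results of these data known. Text names all 8 members, list genes, Prdm1 and the closest genes by Pearson correlation. Of the listed meiotic genes, Ankrd31 and Meiosin were not matched, and some were matched by older names through RefSeq. Alternatives were other pseudocounts, filters, scalings and weights, limma-voom on recovered reads, replicate blocks and leaving out libraries.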

Additional observations from a re-analysis of the deposited data

Results flagged for a closer look

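In the floxed groups of 4, a library was called distant where its gap to the nearest other library, over the whole range, passed Dixon's 95% limit. This was so in 3 of the 16 groups examined (8 members in 2 groups), and chance alone marks about 1 in 20. Among the CKO-labelled libraries, replicate 4 was distant for Sycp1, at 2.50 RPM, and for Sycp3, at 24.7 RPM, both the lowest of the group. Replicate 1 was distant for Tex12, at 9.99 RPM, the highest of its group.

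The change from E11.5 to E13.5 differed between females and males for 6 of the 8 members, by the limma contrast that subtracts the male change from the female one, which equals the difference between the sexes at E13.5 because both use the same E11.5 libraries. In that contrast 37.6% of all 10749 tested genes were called, 21.2% higher and 16.4% lower in females. The difference was 1.72 for Sycp3, 1.43 for Hormad1, 1.305 for Sycp1, 1.24 for Syce1, 1.03 for Tex12 and 0.65 for Syce2 on the log2 scale, larger in females for each.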

How the results depend on the processing

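Over 39 member results and their alternatives, 656 of 697 values kept direction and side of the threshold, 14 lost a call, 6 gained one and 21 changed sign (14 in CKO-labelled against control, 7 in E11.5 against E10.5, 0 in the E13.5 comparisons); none of the last was a call. The number of members called in E11.5 against E10.5, 2 as reported, was 1 with no filter, 1 with limma-voom, 1 with only the 2 groups fitted and 0 with no trend, and lay between 0 and 2 when single libraries were left out, 0 being without E10.5 replicate 1; the cause was not tested. It was 0 in CKO-labelled against control and 8 in E13.5 females against E11.5 under every alternative run, 6 to 7 in males against E11.5 and 4 to 8 in females against males, where Hormad2 was called in 5 of 18 alternatives. In CKO-labelled against control, Hormad2 was −0.13 with array weights, −0.0312 with limma-voom and −0.0235 without CKO-labelled replicate 4 and control replicate 2, where Hormad1 was 0.0131. In E11.5 against E10.5, Sycp2 was 0.0498 with a pseudocount of 10. Leaving out single libraries moved these log2 differences across 0: for CKO-labelled against control, Hormad2 −0.15 to 0.13, Sycp1 −0.0803 to 0.34 and Syce2 −0.15 to 0.0448; for E11.5 against E10.5, Hormad2 −0.40 to 0.26, Sycp1 −0.19 to 0.90, Syce1 −0.0743 to 0.62 and Sycp2 −1.12 to 0.94. Replicate numbers are not stated to mark a shared source; same-numbered deviations correlated at 0.24, 0.02, 0.25 and 0.18 in the floxed table, where 6 of 8 libraries correlated best with their own number, and at −0.03 to 0.03 in the wild-type one. A replicate block took the genes called in CKO-labelled against control to 314, against 228 without it, and the members called were 0, 2, 8, 7 and 6 in the 5 comparisons, as without it. Median-ratio scaling shifted the median of all genes by −0.11 in E13.5 females against E11.5. Depth limits Sycp1 and Sycp2 before E13.5, and 2 libraries per wild-type group limit every E13.5 comparison.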

Other observations

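Spo11, which did not pass the filter in the floxed table and was picked out after its values were seen, was at 0.232, 2.19, 0.861 and 2.50 RPM in the CKO-labelled libraries, against 5.89, 6.96, 4.82 and 6.59 RPM in the control libraries. Every CKO-labelled library lay below every control library, at levels where the floor of 3 reads was 0.596 to 1.07 RPM. Of the 9384 genes tested in this comparison, 8.19% had groups that did not overlap, in either direction. Spo11 itself was not tested.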
